A study of Mus musculus with 50 samples.

Results

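The genes that receive and relay the corticosteroid signal were followed in hippocampal RNA of mice, wild-type (WT) or transgenic (TG). The members were chosen by name: the receptors Nr3c1 and Nr3c2, the immunophilins Fkbp4 and Fkbp5, the enzyme Hsd11b1, the hormone-induced genes Sgk1 and Tsc22d3, and Crh, Crhr1 and Crhbp of the corticotropin-releasing hormone system. On the Agilent arrays 17 of 41174 non-control probes carried the name of a member, and 9 of the 10 genes had a probe, whereas Crh had none by name and was not analysed here. Both groups were male C57/BL6j mice, housed singly, with 5 mice each, and the TG mice overexpressed δC-DCLK-short, a constitutively active splice form of doublecortin-like kinase. The promoter that drives this transgene and the age of the mice are not given in the sources used here. RNA of 1 WT and 1 TG mouse was hybridized together on each of 10 two-color arrays, with TG in Cy5 on arrays 1 to 5 and in Cy3 on arrays 6 to 10, and each mouse was used on 2 arrays.

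Corticosterone, the main glucocorticoid of mice, crosses into brain cells and binds 2 nuclear receptors. The mineralocorticoid receptor has the higher affinity and is abundant in hippocampal neurons, whereas the glucocorticoid receptor is filled mainly at the daily peak and under stress. Unbound receptors are held by heat shock protein complexes. Fkbp5 lowers their affinity for hormone and is itself induced by it, and Fkbp4 promotes the transport of the receptor to the nucleus. Upstream of the hormone, corticotropin-releasing hormone acts through the receptor encoded by Crhr1, and the binding protein encoded by Crhbp captures the peptide outside the cell.

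Glucocorticoid receptor binding sites before a transcript start are 1 route to induction. The upstream sequences of the 2 genes whose probes passed the FDR limit below are therefore shown. They are the 250 bases before a transcript start in RefSeq, on build GRCm38.p6, written 5′ to 3′ on the strand of the gene, and capitals mark each AGAACA or its reverse complement TGTTCT, the half-site of the receptor. The first Sgk1 window is chr10:21993640-21993889 on the plus strand, before the start next to the most downstream of the 6 Sgk1 starts, and is shown because it alone of the 15 windows of the members holds the full element described after the sequences. The second, before the most downstream start, is chr10:21994416-21994665 on the plus strand, and the Crhbp window is chr13:95444832-95445081 on the minus strand.
Sgk1 start with the full element: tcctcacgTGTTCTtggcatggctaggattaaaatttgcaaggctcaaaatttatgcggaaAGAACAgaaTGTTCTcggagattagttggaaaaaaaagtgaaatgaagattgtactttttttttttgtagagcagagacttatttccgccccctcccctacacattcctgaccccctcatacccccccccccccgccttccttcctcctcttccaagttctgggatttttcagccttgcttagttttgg
Sgk1 most downstream start: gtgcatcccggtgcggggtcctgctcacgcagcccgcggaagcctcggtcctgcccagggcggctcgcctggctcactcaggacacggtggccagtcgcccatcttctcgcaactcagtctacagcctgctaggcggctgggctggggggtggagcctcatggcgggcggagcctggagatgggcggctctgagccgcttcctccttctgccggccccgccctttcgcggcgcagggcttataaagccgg
Crhbp start: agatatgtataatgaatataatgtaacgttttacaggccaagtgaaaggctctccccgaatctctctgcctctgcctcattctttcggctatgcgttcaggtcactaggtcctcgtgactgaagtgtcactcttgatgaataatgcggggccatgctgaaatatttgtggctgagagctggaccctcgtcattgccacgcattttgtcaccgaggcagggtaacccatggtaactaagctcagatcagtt
The first window holds a whole palindromic element, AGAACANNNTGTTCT, at chr10:21993701-21993715, which lies 965 bases before the most downstream start of Sgk1. Each arm of that palindrome also counts as a half-site. The 15-base palindrome was present in 3 of 32851 upstream windows of all RefSeq starts (0.00913%), and the half-site on either strand in 5284 (16.1%). Of the 15 starts listed for 8 members, 4 had a half-site, 3 of them of Sgk1 and 1 of Tsc22d3, and none had the cAMP response element TGACGTCA, which 1.55% of all windows held. None of these motifs was in the Crhbp window. Nr3c1 and Crh had no entry. These matches describe the letters in the windows only, and sites outside the 250 bases were not searched.

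The direction of every difference depends on the array labels, which are in doubt. Signs are given as the samples are labelled, as TG over WT, and this direction is opposite to that of the study. If arrays 1 to 5 are exchanged with arrays 6 to 10, every sign turns, sizes and counts over the 10 arrays stay as they are, and the mice behind each value change. Array deviations from the mean of their dye orientation were correlated over 33790 present probes, for pairs of arrays of opposite orientation. The median was -0.13 (from -0.54 to 0.08) in the 6 pairs that share a mouse only as labelled. It was 0.32 (from -0.29 to 0.50) in the 6 pairs that share a mouse only after the exchange. In the 4 pairs that share a mouse either way it was 0.42 (from 0.25 to 0.81), and in the 9 pairs that share none -0.19 (from -0.48 to 0.14). The 667 genes that were held of the supplementary expression table matched the channels with a median best correlation of 0.822 as labelled and of 0.935 after the exchange. The transgene offers no check, since none of the 4 probes named Dclk1 passed the limit, with log2 ratios from -0.08 to -0.06 and FDR from 0.492 to 0.729.

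A probe was called when its FDR, the p-value of limma adjusted by Benjamini and Hochberg over all 41174 probes, was at most 0.1. The fit counts the 10 arrays as independent, although each mouse is on 2 of them. Of the 17 member probes, 2 were called, those of Crhbp and Sgk1, both lower in TG as labelled. Across all probes 7.41% were called, 3.76% as lower and 3.66% as higher. With each array centred on its median instead of loess, no member probe was called, and the calls over all probes split into 103 lower and 1232 higher, against 1548 and 1505 with loess. The other 15 member probes had log2 ratios from -0.20 to 0.17. An unadjusted p under 0.05 was found for 8 of the 17, against 18.9% of all probes. The median log2 ratio of the member probes was -0.04, with 11 below 0 and 6 above, and that of all probes was 0.00. In bulk tissue, fewer cells of a type and less RNA per cell cannot be told apart.

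**Figure D1:**
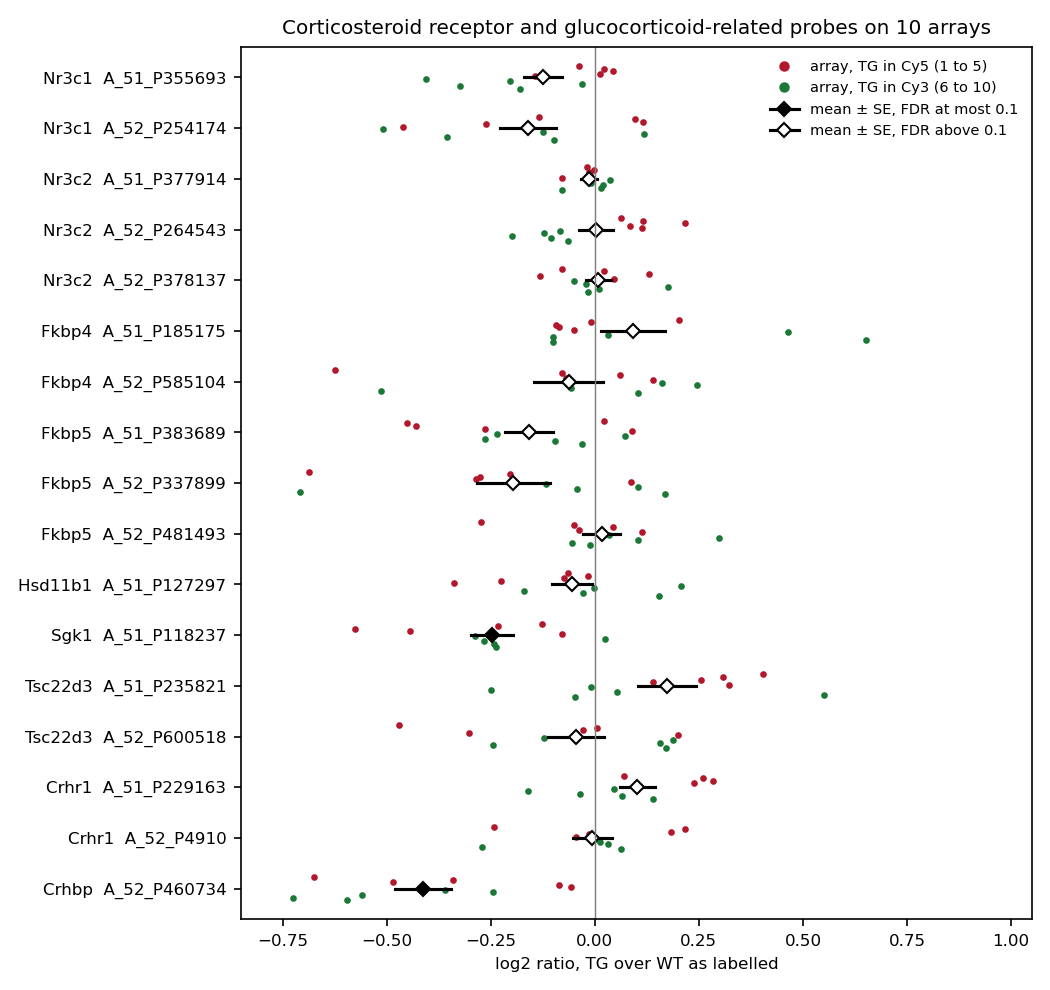
Log2 ratio of TG over WT as labelled (x axis) for the 17 member probes (y axis). Each dot is 1 of 10 arrays, red with TG in Cy5 and green with TG in Cy3, and diamonds with bars are the mean and the standard error of the fit, filled where the FDR was at most 0.1. The Crhbp dots lie below 0 on all 10 arrays and the Sgk1 dots on 9, and the green and red dots of Nr3c2 probe A_52_P264543 lie on opposite sides of 0.

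Crhbp had the largest difference among the members. Its probe A_52_P460734 lies at chr13:91617849-91617908 on the minus strand in the coordinates of the files, which name no build. Its log2 ratios were -0.68, -0.34, -0.48, -0.09 and -0.06 on arrays 1 to 5, and -0.36, -0.24, -0.56, -0.73 and -0.59 on arrays 6 to 10. All 10 arrays lay on the same side of 0, which 2.11% of all probes did and no other member probe. The mean was -0.41 ± 0.07 (SE, n = 10 arrays, 95% interval -0.56 to -0.26, FDR = 0.0167), a 1.33-fold difference. The raw signal ran from 187 to 465 in the WT channels and from 166 to 572 in the TG channels, above background on all 10 arrays.

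Values per mouse were then taken as the mean of both normalized log2 channel values of a mouse. For Crhbp they were 8.25 in WT1, 8.25 in WT3, 8.26 in WT4, 8.31 in WT5 and 8.28 in WT6. In the TG mice they were 8.15 in TG1, 7.68 in TG2, 8.03 in TG3, 7.65 in TG4 and 7.78 in TG5. As labelled, the WT mice lay within a narrow range, 8.27 ± 0.02 (SD, n = 5), and all TG mice, 7.86 ± 0.22 (SD, n = 5), lay below them. After the exchange the mice labelled TG had the higher values, 8.27 ± 0.10 against 7.86 ± 0.16 in WT (SD, n = 5 each), again with no overlap. Groups of mice did not overlap for 2.08% of all probes as labelled and for 1.57% after the exchange. In the limma fit over all probes with 1 value per mouse the FDR was 0.230 as labelled and 0.213 after the exchange.

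Crhbp is made by subsets of GABAergic neurons in the hippocampus. Of the 9 probes of 8 interneuron genes 6 were above 0 and 3 below. The 1 called was that of Npy, higher in TG as labelled, against 3.66% of all probes called higher. The Sst probe was at 0.35 ± 0.13 (SE, FDR = 0.152) and the 2 probes of Gad1 at -0.14 and -0.12 (FDR = 0.104 and 0.223). Gad2, Pvalb, Vip, Lhx6 and Slc32a1 were at 0.21, 0.10, 0.06, 0.06 and -0.03 (FDR from 0.376 to 0.885). All 9 probes were well above background on every array, and their summed channel values ran from 10366 to 12891 in the WT mice and from 10601 to 14718 in the TG mice. The part of interneuron number in the Crhbp value was not tested.

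Sgk1, a kinase that acts on ion channels and transporters and is a direct target of both receptors, was lower in TG as labelled by a smaller step. Probe A_51_P118237 at chr10:21948727-21948786, plus strand, had log2 ratios of -0.13, -0.23, -0.58, -0.44 and -0.08 on arrays 1 to 5. On arrays 6 to 10 they were -0.29, 0.02, -0.27, -0.24 and -0.24, so that array 7 alone lay above 0. The mean was -0.25 ± 0.05 (SE, n = 10 arrays, 95% interval -0.36 to -0.14, FDR = 0.0326), a 1.19-fold difference. Arrays 7 and 8 were scanned in a later session of the same day; without both, the value was -0.28 (FDR = 0.0455), and within this session of 2 arrays it was -0.12 (FDR = 0.817). The corresponding values of Crhbp were -0.42 (FDR = 0.0451) and -0.40 (FDR = 0.703).

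For Sgk1 the mice overlapped. The WT mice were at 9.20 in WT1, 9.41 in WT3, 9.43 in WT4, 9.56 in WT5 and 9.25 in WT6, and the TG mice at 9.25 in TG1, 9.02 in TG2, 9.06 in TG3, 9.25 in TG4 and 9.04 in TG5. TG1 and TG4 thus lay above WT1 and narrowly above WT6, at 9.252 and 9.250 against 9.247 in WT6. The exact two-sided permutation p over mice was 0.0476 as labelled and 0.0317 after the exchange, and the FDR over all probes with 1 value per mouse was 0.394 and 0.499. No member probe was called with 1 value per mouse, where 0.0583% of all probes were called. Sgk1 also lost its call when both arrays of WT3, WT4, WT5, TG3 or TG5 were left out, with values from -0.25 to -0.20 and FDR from 0.114 to 0.142, and Crhbp when those of WT4 were left out, at -0.39 (FDR = 0.107). A further probe, A_52_P178486, is described in the files as similar to Sgk but carries no accession of a member; it was dim, with a median raw signal of 70.7 in the WT channels, and its log2 ratio was 0.01 (FDR = 0.883).

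**Figure D2:**
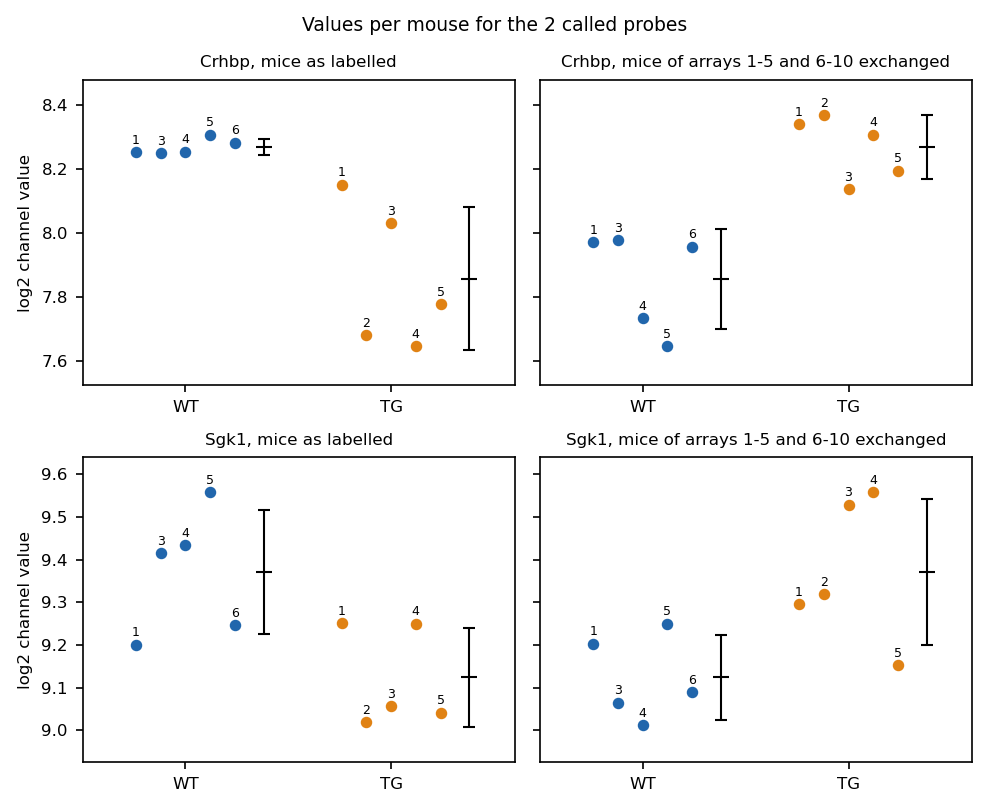
Normalized log2 channel value (y axis) of each WT (blue) and TG (orange) mouse for Crhbp (top) and Sgk1 (bottom), with the mice as labelled (left) and after the exchange of arrays 1 to 5 with 6 to 10 (right). Numbers are mouse numbers, bars are mean ± SD of 5 mice; the Crhbp groups do not overlap in either panel but change places, and the Sgk1 groups overlap in both.

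Sgk1 is also transcribed in oligodendrocytes. Of 14 probes of 8 oligodendrocyte genes, 10 were below 0 as labelled, against 19774 of 41174 probes in all. Called lower were 2 of the 14, against 3.76% of all probes. Of these 2, 1 was a probe of Mbp, a main protein of myelin, at -0.22 (FDR = 0.0543). The other Mbp probes, A_52_P329451 and A_52_P604195, were at -1.15 and -0.14 (FDR = 0.187 and 0.267). The probes of Cnp and Cldn11 were above 0, at 0.24 and 0.17 (FDR = 0.135 and 0.205), and those of Mobp lay on both sides, at 0.29 and -0.20 (FDR = 0.113 and 0.357). All 14 were well above background on every array, and their summed values ran from 33678 to 42902 in WT and from 28726 to 35210 in TG mice. The mean of the list was -0.75 on array 1 and -0.63 on array 9, outside the range of -0.30 to 0.16 on the other 8 arrays. Sgk1 was at -0.13 and -0.24 on these 2 arrays. Without them Sgk1 was at -0.26 (FDR = 0.0599). The part of oligodendrocyte RNA in the Sgk1 value was not tested.

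The receptors themselves were not called. The glucocorticoid receptor, Nr3c1, had a pair of neighbouring probes on the minus strand of chromosome 18, at 39638135 to 39638194 and 39638328 to 39638387. Probe A_51_P355693 ranged from -0.40 to 0.04 over the arrays, with 7 of 10 below 0 and a mean of -0.12 ± 0.05 (SE, 95% interval -0.23 to -0.02, FDR = 0.163). Probe A_52_P254174 ranged from -0.51 to 0.12, also with 7 of 10 below 0 and a mean of -0.16 ± 0.07 (SE, interval -0.31 to -0.01, FDR = 0.216), and it was well above background on 9 arrays. Median raw signals in the WT channels were 133 for A_51_P355693 and 75.6 for A_52_P254174. Averaged over both probes, Nr3c1 was at -0.14 (FDR = 0.132 over 17567 genes). The values of A_51_P355693 differed with the dye: their mean was -0.02 on arrays 1 to 5 and -0.23 on arrays 6 to 10 (dye term FDR = 0.0735), and with the dye term in the model the genotype FDR was 0.0757 at the same ratio.

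The mineralocorticoid receptor, Nr3c2, had 3 probes within a short stretch of chromosome 8, from 76116469 to 76117665 on the plus strand. Probe A_52_P378137 was at 0.01 (95% interval -0.06 to 0.08, FDR = 0.940), with 5 arrays on each side of 0. Probe A_52_P264543 was at 0.00 (interval -0.09 to 0.09, FDR = 0.991), but its arrays were split by dye. It was above 0 on all of arrays 1 to 5, with a mean of 0.12, and below 0 on all of arrays 6 to 10, with a mean of -0.11 (dye term FDR = 0.00657). The dye term passed the limit for 3 of the 17 member probes and for 22.6% of all probes, and the third of these was Crhr1 probe A_51_P229163 (FDR = 0.0925). Probe A_51_P377914 was not well above background in both channels of any array, and its ratio was -0.01 (FDR = 0.794). Median raw signals in the WT channels were 177 for A_52_P378137, 84.4 for A_52_P264543 and 59.2 for A_51_P377914. No background was subtracted, which shrinks the ratios and intervals of dim probes toward 0.

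Of the immunophilins, neither gene was called, and probes of the same gene lay far apart on arrays 1 and 9. Fkbp4 probe A_51_P185175 had a mean log2 ratio of 0.09 ± 0.08 (SE, FDR = 0.607) and probe A_52_P585104 one of -0.06 ± 0.08 (SE, FDR = 0.782). The first was at 0.20 and 0.65 on arrays 1 and 9, where the second was at -0.62 and -0.51. For Fkbp5, probe A_51_P383689 ranged from -0.45 to 0.09 with a mean of -0.16 ± 0.06 (SE, interval -0.29 to -0.03, FDR = 0.158). Probe A_52_P337899 was at -0.69 on array 1 and -0.71 on array 9 and between -0.29 and 0.17 on the others, with a mean of -0.20 ± 0.09 (SE, FDR = 0.252), which was -0.07 (FDR = 0.660) without these 2 arrays. Probe A_52_P481493, far upstream of both, was at 0.02 (FDR = 0.917) and was dim, with a median raw signal of 72.7 in the WT channels.

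Tsc22d3 encodes GILZ, the glucocorticoid-induced leucine zipper, and has several transcript starts. Probe A_51_P235821 was at 0.17 ± 0.07 (SE, interval 0.02 to 0.32, FDR = 0.196), with 7 of 10 arrays above 0, and probe A_52_P600518 was at -0.04 ± 0.07 (SE, FDR = 0.820), with 5 on each side. A further probe, A_51_P235816, described in the files as GILZ but not reached by the naming rule, was above 0 on all 10 arrays, from 0.01 to 0.57, with a mean of 0.16 ± 0.05 (SE, FDR = 0.115). Hsd11b1, which regenerates active corticosterone inside cells, was at -0.06 ± 0.05 (SE, interval -0.16 to 0.05, FDR = 0.632), with 8 of 10 arrays below 0. Crhr1 was at 0.10 ± 0.04 (SE, interval 0.01 to 0.19, FDR = 0.213) on probe A_51_P229163 and at -0.01 ± 0.05 (SE, interval -0.11 to 0.10, FDR = 0.972) on probe A_52_P4910.

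On arrays 1 and 9 an upstream probe of Fkbp4, Fkbp5, Tsc22d3 and Crhr1 lay well below the probe nearest the 3′ end. These arrays share the mouse labelled TG4, and WT5 after the exchange. In Fkbp4 the lower probe lies 2672 bases upstream of the higher one, in genomic distance. In Tsc22d3 the probe at the 3′ end, A_51_P235816, was at 0.37 and 0.57 on arrays 1 and 9, the one 125 bases upstream of it at 0.40 and 0.55, and the one 683 bases upstream at -0.47 and -0.24. In Crhr1 the 3′ probe was at 0.07 on both arrays, and the probe 2048 bases upstream was at -0.24 and -0.27, below the -0.05 to 0.22 of the other 8 arrays. In Fkbp5 the 3′ probe was at 0.02 and -0.10, and the one 715 bases upstream at -0.69 and -0.71. The Fkbp5 probe 38195 bases upstream, across introns, was closer to the 3′ probe, at -0.27 and -0.06. Nr3c1, Nr3c2 and Sgk1 had no upstream probe well below the 3′ probe on both arrays. The probe of Nr3c1 193 bases upstream was at -0.13 and -0.36, against -0.04 and -0.32 at the 3′ probe, and that of Nr3c2 598 bases upstream was at -0.08 and 0.01, against 0.06 and -0.10. For Sgk1, the dim probe A_52_P178486 lies 2680 bases upstream and was at -0.03 and -0.04, above the -0.13 and -0.24 of the 3′ probe.

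The same was seen beyond the members. Over 1978 other genes with 2 present probes 500 to 5000 bases apart, the log2 ratio of the 5′ probe minus that of the 3′ probe had a median of -0.18 on array 1 and -0.15 on array 9, and of -0.07 to 0.07 on the other 8 arrays. The difference was negative for 74.4% of these genes on array 1, for 65.8% on array 9 and for 36.1% to 61.7% on the others, the highest of which was array 4. With this array median as a covariate, the values at a difference of 0 were -0.38 for Crhbp (FDR = 0.0146) and -0.24 for Sgk1 (FDR = 0.0349), and Fkbp5 probe A_52_P337899 passed the limit at -0.11 (FDR = 0.0856). Without arrays 1 and 9, Crhbp was at -0.34 (FDR = 0.0352). Crhbp rests on 1 probe, so that the place of the probe cannot be compared within the gene.

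**Figure D3:**
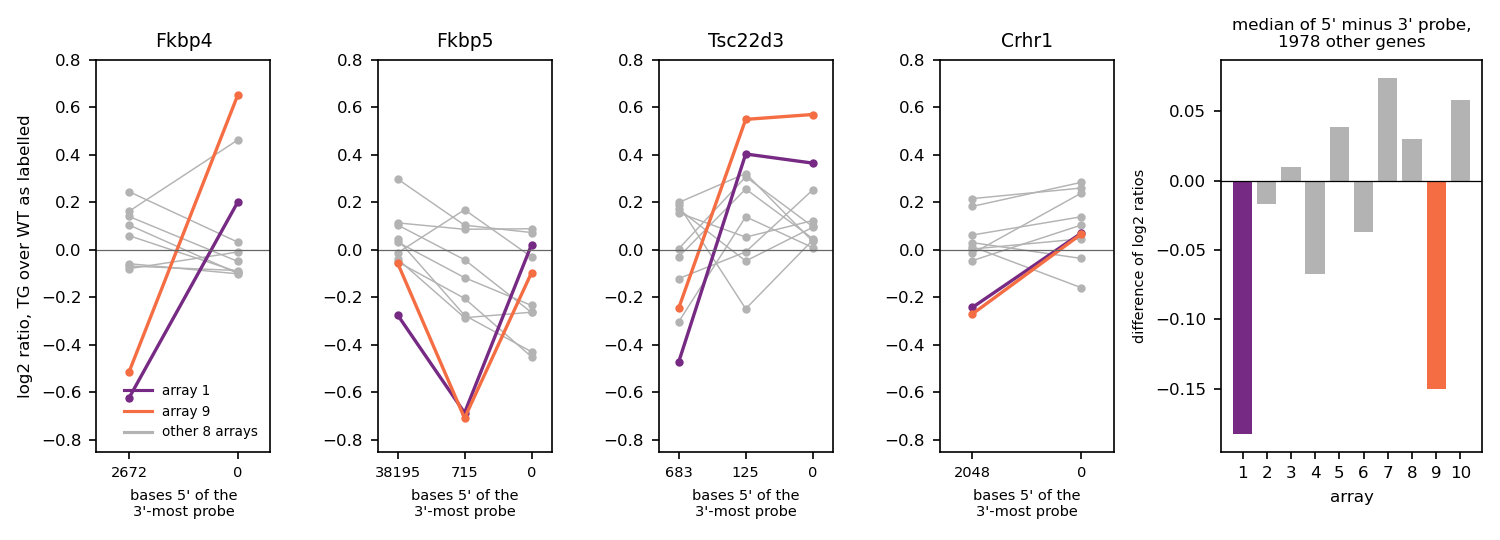
Left, log2 ratio of TG over WT as labelled (y axis) for the probes of 4 members, ordered from 5′ to 3′ by their distance in bases from the 3′-most probe (x axis), with 1 line per array; array 1 is purple, array 9 orange and the other 8 grey. Right, median over 1978 other genes of the 5′ minus the 3′ probe on each array, which was -0.18 on array 1 and -0.15 on array 9.

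The wider pathway was read from 6 lists with 95 measured genes and 140 probes, of which 7 probes were called, 5 higher and 2 lower as labelled. This is a smaller share than the 7.41% of all probes that were called. Among 35 probes of 29 other glucocorticoid-induced genes, 2 were called higher and 1 lower, and the median log2 ratio was 0.02. The metallothioneins Mt2 and Mt1, metal-binding proteins with similar sequences, had the largest ratios. Mt2 was above 0 on all 10 arrays, from 0.06 to 1.53, with a mean of 0.71 ± 0.15 (SE, FDR = 0.0341), and Mt1 on 9, from -0.23 to 1.40, with a mean of 0.65 ± 0.15 (SE, FDR = 0.0462). Both were lowest on array 1 and highest on array 3. Mertk, a phagocytic receptor kinase, was lower at -0.18 ± 0.05 (SE, FDR = 0.0740), in the direction of Sgk1.

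Metallothioneins are abundant in astrocytes. Of 9 probes of 6 astrocyte genes 3 were called higher as labelled, 1 of Aldh1l1 and 2 of Aqp4, against 3.66% of all probes, and the median of the list was 0.16. The probes of Gfap and Gja1 were at -0.15 and -0.08 (FDR = 0.137 and 0.461), each below 0 on 8 of 10 arrays, and the 2 probes of Slc1a2 at 0.12 and 0.00 (FDR = 0.310 and 0.981). All 9 were well above background on every array, and their summed values ran from 4717 to 5332 in WT and from 5158 to 6352 in TG mice. The part of astrocyte RNA in the metallothionein values was not tested.

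Among the receptor chaperones, 24 of 29 probes of 15 genes were below 0 with a median of -0.12, and none of these was called. Of all probes, 19774 of 41174 were below 0. Several genes had more than 1 probe, and these could differ widely on arrays 1 and 9. Hspa8 probe A_52_P12877 was at -4.63 and -4.60 on these arrays, and Hspa8 probe A_51_P170371 at 0.10 and -0.00045. The 1 call was Bag1, a co-chaperone of Hsp70 that binds the glucocorticoid receptor, higher on all 10 arrays at 0.19 ± 0.04 (SE, FDR = 0.0227). A probe of Med1, a mediator subunit that contacts nuclear receptors, was the 1 call among 23 coregulator probes, at 0.20 ± 0.05 (SE, FDR = 0.0672). The other Med1 probes, A_52_P301166 and A_52_P176300, were both at 0.04 (FDR = 0.808 and 0.845). A probe of Abcb1b, a drug efflux transporter, was lower at -0.10 ± 0.03 (SE, FDR = 0.0736) and was the 1 call among 18 probes of hormone metabolism and transport. The other Abcb1b probes, A_52_P170509 and A_52_P92772, were at -0.10 and 0.03 (FDR = 0.127 and 0.744). Npy, a peptide of interneurons, was higher at 0.46 ± 0.12 (SE, FDR = 0.0650) and was the 1 call among 15 probes of CRH family and stress peptides. Of 20 probes of the Sgk1 pathway none was called by limma, and 5 had an unadjusted p under 0.05. None of the 140 probes was called with 1 value per mouse.

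**Figure D4:**
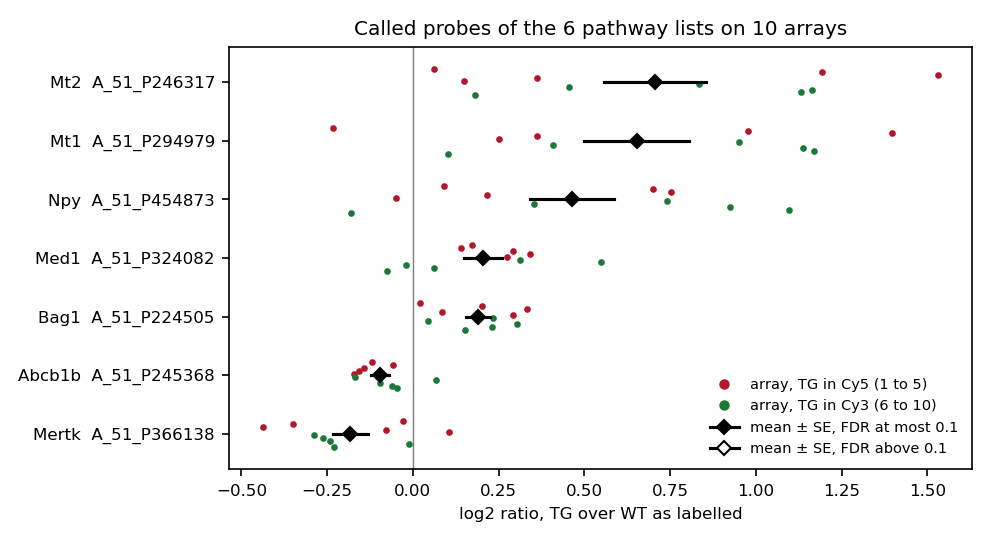
Log2 ratio of TG over WT as labelled (x axis) of the 7 called probes of the 6 pathway lists (y axis), with 1 dot per array, red with TG in Cy5 and green with TG in Cy3; filled diamonds and bars are mean and standard error. Mt2 and Bag1 lie above 0 on all 10 arrays, and Mt2 and Mt1 spread widest.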

How the data were processed

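Hippocampal RNA of WT and TG mice was measured on 5 microarray platforms, of which the Agilent arrays, with 5 WT and 5 TG mice, were used here. Per the file headers, the authors read the arrays with Feature Extraction 8.5.1.1 and deposited mean and median spot intensities in Cy3 (green) and Cy5 (red), local background, flags and the log10 ratio of the software. The labels gave the genotype in each dye, and with it the 2 groups of arrays.

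R 4.3.3 with limma 3.58.1 was used. Loess was applied to the mean intensities of each array. No background was subtracted, which shrinks the ratios of dim probes, and control spots had weight 0. Spots of a probe were averaged, ratios turned to TG over WT, and an intercept was fitted with limma over all 41174 probes without filter, at an FDR limit of 0.1. Each mouse is on 2 arrays, so arrays are not independent; an alternative used 1 value per mouse after Aquantile scaling. Whether RNA extractions were repeated is not given in the sources used here, and the number of arrays limits the precision. Probes were named by RefSeq accession (22207) or by the symbol in the description (2055), and 16912 had no name. A probe was present where Cy3 and Cy5 lay, on all 10 arrays, over the 95th percentile of the 314 negative controls. Well above background is the flag of the software. The strand given by the files matched RefSeq for 99.3% of the probes compared. The fit was tested on simulated data.

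Named genes were the members, Dclk1, and the called genes of 6 pathway lists, at most 6 a list by smallest p. Members and lists were chosen with earlier results of these data known. Genes of interneurons, oligodendrocytes and astrocytes and of 7 further marker lists were read as well: of the latter, called probes were 1 higher and 1 lower of 12 for dentate and CA neurons, 1 higher of 10 for microglia, 1 lower of 7 for endothelium, none of 6 for choroid plexus (1 at an unadjusted p under 0.05), 1 higher of 9 for thalamus, 1 higher of 8 for hypothalamus and amygdala, and 1 higher of 11 for immediate early genes. One result of the oligodendrocyte list is not reported here.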

Additional observations from a re-analysis of the deposited data

Results flagged for a closer look

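In 68 groups of 5 values, the 5 arrays of a dye orientation or the 5 mice of a genotype for each member probe, 8 held a value far from the other 4 by the 95% limit of Dixon; chance gives about 1 in 20 groups. Of these, 5 came from arrays 1 and 9 or the mouse that both share as labelled: Fkbp4 probe A_51_P185175 at 0.20 and probe A_52_P585104 at -0.62 on array 1, Crhr1 probe A_52_P4910 at -0.27 on array 9, and, for mouse TG4 among the TG mice, Fkbp5 probe A_52_P337899 at 6.62 and Tsc22d3 probe A_52_P600518 at 8.28. The others were Sgk1 on array 7, at 0.025 where the other 4 arrays of its orientation lay between -0.29 and -0.24, Nr3c2 probe A_52_P378137 on array 8 at 0.18, and Nr3c2 probe A_51_P377914 on array 5 at -0.080, which was not well above background in both channels of any array.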

How the results depend on the processing

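Of the 17 member probes, 2 passed the limit. This number was 0 with median centring, with 1 value per mouse as labelled and with exchanged mice, and within the second scan session of 2 arrays. It was 4 within the first scan session and 5 with the WT mouse as a replicate block. The consensus correlation of that block was -0.25 (-0.14 for the TG mouse). Each mouse was on 1 array of each dye orientation, and the block fit had no dye term. Dye differences thus enter the 2 arrays of a mouse with opposite sign, and these correlations cannot tell whether the labels pair the arrays. Leaving out 1 array or both arrays of a mouse gave 0 to 4, with 4 without array 7, 1 without WT3, WT5, TG3 or TG5 and 0 without WT4. The 7 pathway probes became 0 with 1 value per mouse, as labelled or with exchanged mice, and within the second session, 3 at an FDR limit of 0.05, 4 with median centring, 12 with a dye term or with separate channels, 13 with robust regression, and 14 and 27 with the TG or the WT mouse as a block; leaving out arrays or mice gave 0 to 12, with 0 without WT3 or WT4, 1 to 4 without TG2, TG3, TG5, WT5 or array 2, 3, 6 or 8, and 12 without array 5 or 7. Called probes over the whole array were 1335 with median centring, 1203 at the limit of 0.05, 5969 with the WT mouse block and 24 with 1 value per mouse, against 3053. Omission of a single array gave 1117 to 3404 and of both arrays of a mouse 282 to 3199. Spots with outlier flags and the probe position covariate were added after seeing the data.

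Crhbp and Sgk1 kept their sign under every setting that leaves the labels in place, from -0.51 to -0.34 and from -0.30 to -0.12. With exchanged mice both signs turn, and those values were turned back to the labelled direction for this comparison. With median centring they were at -0.36 (FDR = 0.194) and -0.15 (FDR = 0.618). Signs of probes near 0 turned. Within the second session the values were -0.10 for Crhr1 probe A_51_P229163 and 0.022 for A_52_P4910, -0.034 and 0.093 for Fkbp4 probes A_51_P185175 and A_52_P585104, 0.031 for Fkbp5 A_52_P337899, 0.0046 for Nr3c2 A_51_P377914 and -0.16 for A_52_P264543, and -0.10 and 0.17 for Tsc22d3 A_51_P235821 and A_52_P600518. Within the first session they were -0.030 for Fkbp5 A_52_P481493 and -0.0086 for Nr3c2 A_52_P378137. With median centring they were 0.071 for Crhr1 A_52_P4910, 0.014 for Fkbp4 A_52_P585104, -0.035 for Fkbp5 A_52_P481493, 0.032 for Hsd11b1, -0.021 for Nr3c2 A_52_P264543 and 0.032 for Tsc22d3 A_52_P600518. With the position covariate they were 0.025 for Crhr1 A_52_P4910, 0.011 for Fkbp4 A_52_P585104, -0.0027 for Nr3c2 A_52_P264543 and 0.017 for Tsc22d3 A_52_P600518. Averaged over the probes of a gene they were 0.048 for Crhr1, 0.014 for Fkbp4, -0.11 for Fkbp5, -0.0014 for Nr3c2 and 0.064 for Tsc22d3. Robust regression gave 0.0082 for Crhr1 A_52_P4910 and 0.0035 for Fkbp4 A_52_P585104, and median pixels gave -0.0047 for Nr3c2 A_52_P264543. Leaving out arrays gave -0.043 to 0.056 for Crhr1 A_52_P4910, -0.12 to 0.063 for Fkbp4 A_52_P585104, -0.023 to 0.062 for Fkbp5 A_52_P481493, -0.021 to 0.0018 for Nr3c2 A_51_P377914, -0.022 to 0.024 for A_52_P264543, -0.027 to 0.033 for A_52_P378137, and -0.10 to 0.033 for Tsc22d3 A_52_P600518. The cause of these changes was not tested.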
